A study of Mus musculus with 6 samples.

Results

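The 9 genes described here lie on or beside the route from mitochondrial citrate to fatty acids. These are the mitochondrial citrate carrier Slc25a1 and the enzymes Cs, Aco1, Acly and Acss2 that make or use citrate or acetyl-CoA. The lipid enzymes Acaca, Fasn, Elovl6 and Scd2 complete the list. All 9 are among the 24264 genes in an expression table of mouse lumbar dorsal root ganglia at E12.5. These ganglia hold the cell bodies of sensory neurons together with their glia. The list was drawn up by pathway role around Slc25a1, which was itself chosen by its measured RPKM difference between control and miR_cKO libraries. The difference between groups is therefore given as a description, and its p-values support nothing beyond it.

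Polyadenylated RNA was sequenced from 3 control and 3 miR_cKO mice, all on a mixed C57/Bl6 x 129/SvEv background. The miR_cKO mice carried Wnt1-Cre and were flox/flox for miR-183-96-182, the cluster of 3 microRNAs that the Cre removes from the cells it acts in. Wnt1-Cre acts in neural crest cells, which give rise to the sensory neurons and glia of the ganglia but not to their blood vessels. Controls 1 and 3 were titled Wnt-Cre and control 2 was titled WT. The sources used here do not give the floxed status of the controls or say whether embryos were pooled, so p-values measure the spread between these libraries, which may be partly technical.

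Levels are in RPKM, reads scaled to transcript length and library depth, which allows comparison between genes. Estimated depth was 19900000 to 23900000 reads per library. All 10 sensory neuron markers and all 6 glial markers looked for were detected at 1 RPKM or more in at least 1 library, while none of 5 adipocyte markers was. The microRNA genes Mir183, Mir96 and Mir182 were listed at 0 in all 6 libraries, so the deletion could not be checked in these libraries. Muscle markers differed between libraries: their summed level over 9 genes was 31.8, 173 and 132 RPKM in controls 1 to 3 and 30.6 to 42.0 RPKM in miR_cKO. Mesenchyme markers, 10 genes, summed to 153 to 274 RPKM in controls and 131 to 199 RPKM in miR_cKO. Library miR_cKO 1 stood apart by Xist, an RNA made from an inactive X, at 96.0 RPKM against 0.0890 RPKM or less in the other libraries. Ddx3y, a gene of the Y chromosome, was at 0.00979 RPKM in miR_cKO 1 and at 11.3 to 13.6 RPKM in the others. By these genes miR_cKO 1 was female and the other libraries were male, so sex was not balanced between groups.

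Citrate is made from acetyl-CoA and oxaloacetate inside mitochondria. The carrier exchanges it across the inner membrane, and ATP citrate lyase then splits it in the cytosol to give acetyl-CoA, the building block of fatty acids and sterols and the donor for acetylation of proteins. Growing neurons and glia need fatty acids for new membrane. MicroRNAs bind messages mostly through a seed, bases 2 to 8, and lower the level of messages whose 3 prime UTR holds the matching letters.

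The 3 deleted microRNAs are shown first because messages of the 9 genes were searched for matches to their seeds. Sequences are from RefSeq (GRCm38.p6, the same assembly as mm10), read 5′ to 3′, with the seed in capitals. All lie on chromosome 6, minus strand: miR-183-5p at 30169711 to 30169732, miR-96-5p at 30169506 to 30169528 and miR-182-5p at 30165962 to 30165986.
miR-183-5p: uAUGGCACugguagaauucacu
miR-96-5p: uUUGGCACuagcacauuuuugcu
miR-182-5p: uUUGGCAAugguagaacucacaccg
An 8mer site matches bases 2 to 8 and is followed by A, a 7mer-m8 site matches bases 2 to 8, and a 7mer-A1 site matches bases 2 to 7 and is followed by A. For miR-183 these are GTGCCATA, GTGCCAT and TGCCATA. For miR-96 they are GTGCCAAA, GTGCCAA and TGCCAAA, and for miR-182 TTGCCAAA, TTGCCAA and TGCCAAA. The seeds of miR-96 and miR-182 thus share the TGCCAAA site.

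Of the 9 genes, 3 had a site in the 3 prime UTR that GENCODE M21 (mm10) gives for the main transcript, namely Slc25a1, Acaca and Fasn. The UTR of Slc25a1 was the shortest of the 9, at 590 bases. A site of each gene follows with the matched letters in capitals and up to 11 bases on either side.
Slc25a1, miR-182 7mer-m8, chr16:17925248-17925254, minus strand: tcaggaccaccTTGCCAAggagaataaac
Fasn, miR-183 7mer-m8, chr11:120806954-120806960, minus strand: ccttggagggtGTGCCATtctgtcagtat
Acaca, miR-183 7mer-A1, chr11:84401505-84401511, plus strand: tgaactgagatTGCCATAttatctgtcca
The miR-182 site of Slc25a1 ends 25 bases before the end of the UTR. No site was found in the UTRs of Cs, Aco1, Acly, Acss2, Elovl6 or Scd2, although those of Elovl6 and Scd2 are 5005 and 3664 bases long. Among the 12142 tested genes with an annotated 3 prime UTR, 33.5% had a site. Among the 2455 of them with a UTR of 500 to under 1000 bases, which holds Slc25a1, 20.2% had a site. With 1000 to under 2000 bases, as for Acaca at 1968, it was 36.8%. With 2000 to under 4000 bases, as for Fasn at 2008 and for Scd2, it was 58.3%. A match is a description of letters and was not tested as a binding site.

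Slc25a1, which exports citrate in exchange for malate, was the one member with separate groups. It is a gene of 9 exons in its main transcript on chromosome 16 (mm10, 17925223 to 17928219, minus strand). Its level was 24.7, 25.7 and 24.4 RPKM in controls 1 to 3, against 50.8, 46.8 and 40.7 RPKM in miR_cKO 1 to 3. Every miR_cKO library was thus above every control, with a gap wider than either group's range. The group means were 24.9 ± 0.686 and 46.1 ± 5.08 RPKM (SD, n = 3 each), which is 85.0% higher in miR_cKO. On the log2(RPKM + 1) scale used for all fits here, the difference was 0.86 (SE 0.088, 95% interval 0.65 to 1.07), or 1.57-fold to 2.09-fold.

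In a limma fit over all 13118 genes with at least 1 RPKM in 3 or more libraries, 8 genes (0.061%) passed a Benjamini-Hochberg adjusted p of 0.05, 7 (0.0534%) higher and 1 (0.00762%) lower in miR_cKO. Slc25a1 was among the 7, with an adjusted p of 0.0438 by limma. It was eighth and last of the called genes by p-value. The size of the difference changed little with processing, while the call did not hold: of 17 other settings, 3 kept it, and leaving out any 1 of the 6 libraries ended it. With 1 library left out the log2 change was 0.78 to 0.94, with limma adjusted p between 0.114 and 0.369.

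The reads behind these values were recovered for Slc25a1 as 912, 1062 and 838 in controls 1 to 3 and 1947, 1769 and 1445 in miR_cKO 1 to 3. Counting error at these depths was 3.27% of the mean in controls, and the spread between controls was 2.75%, so the controls differed by no more than reads alone would give. In miR_cKO the spread of 11.03% exceeded a counting error of 2.41%. These errors cover counting only.

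Muscle and mesenchyme markers were high in controls 2 and 3, and over the 6 libraries their summed level had r = -0.66 and -0.63 with Slc25a1 on the log2 scale; their part in the result was not tested beyond the fits that follow. Within the controls Slc25a1 lay between 24.4 and 25.7 RPKM. Without controls 2 and 3 the log2 change of Slc25a1 was 0.87, and with the mean of the muscle markers as a covariate it was 0.83 (limma adjusted p = 1.00 and 0.367). Without miR_cKO 1, the library with high Xist, it was 0.78. Without control 2, which by its title lacked the Cre, it was 0.88. In bulk tissue, a difference in the number of cells that express a gene and a difference in RNA per cell cannot be told apart.

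**Figure D1:**
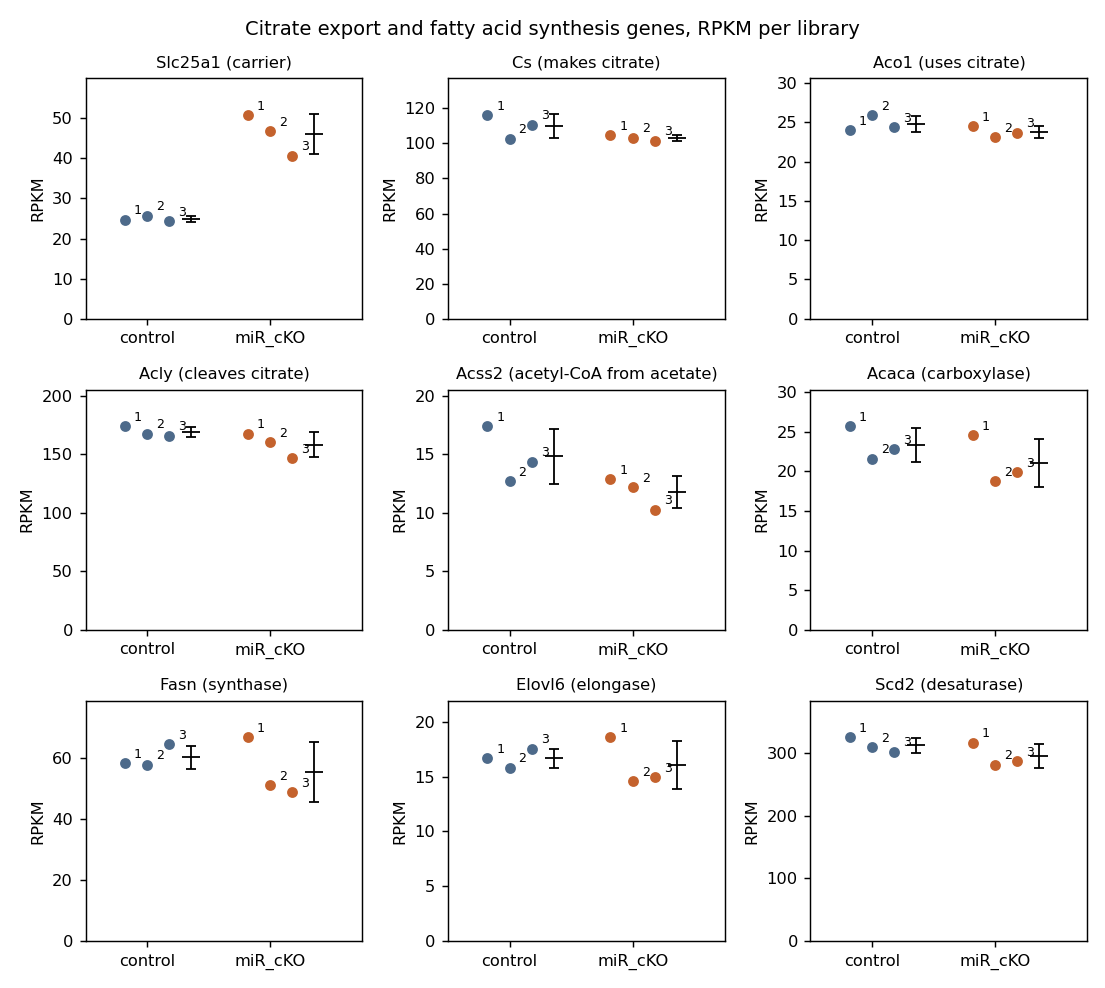
RPKM of each of the 9 genes in the 3 control (blue) and 3 miR_cKO (orange) libraries, numbered by replicate, with the group mean and SD as a bar at the right of each group (each vertical axis starts at 0). In Slc25a1 the miR_cKO libraries lie at 40.7 to 50.8 RPKM and the controls at 24.4 to 25.7 RPKM, while the groups overlap in the other 8 genes.

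None of the 8 enzymes had separate groups, and none passed the test (lowest limma adjusted p = 0.968, for Acss2). Over all genes tested, the groups did not overlap for 4.63% in the higher and 6.24% in the lower direction. All 8 had a log2 change below 0, between -0.30 and -0.056, with a median of -0.094. That direction was common: 59.6% of all genes tested had a change below 0, and their median was -0.024. The enzymes were not independent of each other in this: over the 6 libraries, Pearson's r between them was above 0 in 27 of 28 pairs, with a median of 0.69 and a range of -0.076 (Cs with Aco1) to 0.96. Positions of the enzymes are those of their main transcripts on mm10. On the plus strand, Cs lies on chromosome 10 (128337734 to 128362479), Aco1 on 4 (40143081 to 40198338) and Acss2 on 2 (155517948 to 155562746). Acaca on 11 (84173122 to 84401651), Elovl6 on 3 (129532386 to 129638495) and Scd2 on 19 (44293674 to 44306864) are also on the plus strand. Acly (100476356 to 100528000) and Fasn (120805846 to 120824547) lie on the minus strand of chromosome 11.

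Citrate synthase, Cs, makes citrate as the first step of the tricarboxylic acid cycle. Control levels of Cs were 116, 103 and 111 RPKM, and miR_cKO levels were 105, 103 and 102 RPKM, in replicate order. The lowest control lay inside the miR_cKO range, and the difference was -0.089 (95% interval -0.25 to 0.072). Aco1, the cytosolic aconitase, turns citrate into isocitrate and serves as an iron-regulated RNA-binding protein when it lacks its iron-sulphur cluster. Its control libraries held 24.0, 25.9 and 24.3 RPKM against 24.5, 23.1 and 23.7 RPKM in miR_cKO, with a difference of -0.056 (95% interval -0.20 to 0.092). Control and miR_cKO values of Aco1 overlapped.

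Acly, the ATP citrate lyase that splits exported citrate, measured 174, 168 and 166 RPKM in controls 1 to 3, against 167, 160 and 146 RPKM in miR_cKO 1 to 3. The groups overlapped through miR_cKO 1, and the difference was -0.10 (95% interval -0.27 to 0.075). Acss2 makes cytosolic and nuclear acetyl-CoA from acetate, a route that bypasses citrate. It measured 17.4, 12.7 and 14.4 RPKM in controls 1 to 3, against 12.9, 12.2 and 10.3 RPKM in miR_cKO 1 to 3. Control 1 was the highest library and control 2 lay within the miR_cKO range. The means were 14.8 ± 2.38 and 11.8 ± 1.35 RPKM (SD, n = 3 each), and the log2 change of -0.30 (95% interval -0.61 to 0.0071) was the largest in size among the 8 enzymes. It varied with the libraries used: -0.19 without control 1, but -0.53 without controls 2 and 3, the libraries with high muscle markers, and -0.54 with the muscle markers as a covariate (limma adjusted p = 0.768, 1.00 and 0.434). With 601 to 1061 recovered reads per library, counting error for Acss2 was 3.31% in controls, under a spread of 16.1%. The whole annotated span of Acss2 overlaps the genes Ggt7, Gss and Acss2os on the opposite strand, although Gss starts at 155563181, past the main transcript of Acss2. The sources used here do not say whether the authors' counting used strand.

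Acaca, the acetyl-CoA carboxylase that commits acetyl-CoA to fatty acid synthesis, measured 25.7, 21.6 and 22.7 RPKM in controls 1 to 3, against 24.5, 18.7 and 19.8 RPKM in miR_cKO 1 to 3. Fasn, the fatty acid synthase that builds palmitate, measured 58.3, 57.8 and 64.6 RPKM in controls, against 66.8, 51.1 and 48.7 RPKM in miR_cKO. In both genes miR_cKO 1 lay within or above the controls and miR_cKO 2 and 3 lay below all of them. Their log2 changes were -0.15 (95% interval -0.42 to 0.12) and -0.13 (95% interval -0.42 to 0.17). That of Acaca was -0.29 both without controls 2 and 3 and with the muscle covariate, but -0.074 without miR_cKO 2. That of Fasn ran from -0.27 without miR_cKO 1 to -0.041 without miR_cKO 3. These are the enzymes with a miR-183 site, and neither had a higher mean in miR_cKO. Over all tested genes with an annotated UTR, the median log2 change was 0.0043 for the 4070 with a site. It was -0.036 for the 8072 without. The sets were not matched for UTR length. A site was found in 7.79% of UTRs under 500 bases, against 58.3% of those of 2000 to under 4000 bases. Whether this difference in medians goes with the sites or with UTR length was not tested.

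Elovl6 lengthens palmitate to stearate. It measured 16.7, 15.8 and 17.6 RPKM in controls 1 to 3, against 18.6, 14.6 and 14.9 RPKM in miR_cKO 1 to 3, a difference of -0.060 (95% interval -0.30 to 0.18). Scd2, a stearoyl-CoA desaturase that makes monounsaturated fatty acids and is abundant in the nervous system, measured 325, 310 and 302 RPKM in controls, against 317, 281 and 287 RPKM in miR_cKO. In both genes miR_cKO 1 alone lay among the controls or above them. The Scd2 difference was -0.083 (95% interval -0.27 to 0.10). The microRNA gene Mir5114 lies within Scd2 on the same strand and was listed at a mean of 356 RPKM, so reads of Mir5114 and of Scd2 cannot be told apart. Reads may also have been split between Scd2 and its near copies Scd1, Scd3 and Scd4.

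**Figure D2:**
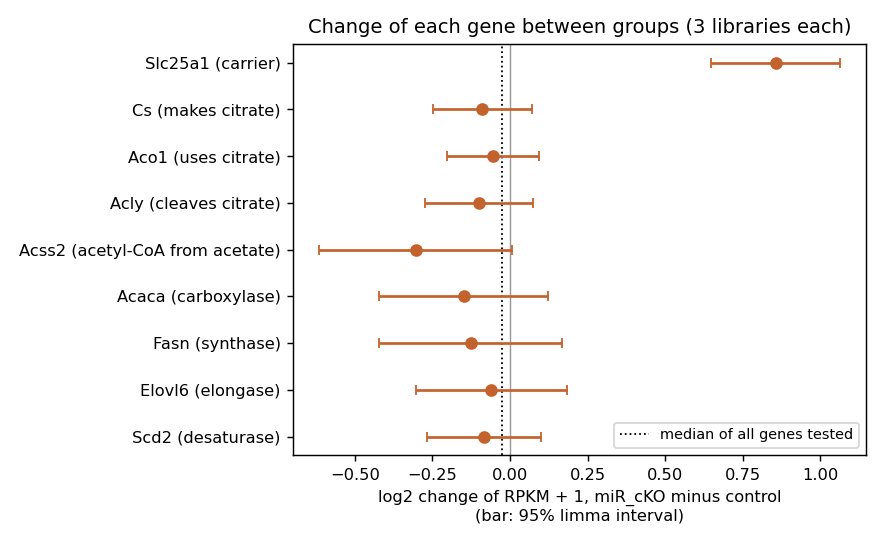
Difference between miR_cKO and control on the log2(RPKM + 1) scale for the 9 genes, with 95% limma intervals from 3 libraries per group and the median of all genes tested (dotted line). Slc25a1 lies at 0.86 with an interval of 0.65 to 1.07, and the intervals of the 8 enzymes all include 0.

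By level, the order in controls was Scd2 at 312 ± 11.8 RPKM, Acly at 169 ± 4.26, Cs at 110 ± 6.78 and Fasn at 60.2 ± 3.78 RPKM (SD, n = 3 each). These neighbours did not overlap. Slc25a1 came next at 24.9 ± 0.686 RPKM with Aco1 at 24.7 ± 1.03 and Acaca at 23.3 ± 2.11 RPKM, and these did not differ beyond their spread. Elovl6 at 16.7 ± 0.871 and Acss2 at 14.8 ± 2.38 RPKM were lowest and overlapped. In miR_cKO the order of the means was the same, but Slc25a1 no longer overlapped Aco1 and its range overlapped that of Fasn. Among all genes tested, the mean level stood at percentile 98.8 for Scd2, 97.8 for Acly and 96.2 for Cs, and at percentile 57.6 for Acss2.

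Relative to the enzyme that uses its cargo, the carrier was higher in every miR_cKO library. Slc25a1 over Acly, both in RPKM, gave a ratio of 0.142, 0.153 and 0.147 in controls 1 to 3, against 0.304, 0.292 and 0.278 in miR_cKO 1 to 3. The groups did not overlap. Slc25a1 over Cs gave 0.228 ± 0.0199 and 0.447 ± 0.0429 in the same groups (SD, n = 3 each). These ratios rest on the same Slc25a1 values and are no separate evidence.

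Across the 6 libraries the lipid enzymes varied together. Among Acaca, Fasn, Elovl6 and Scd2, Pearson's r on log2 values was 0.72 to 0.96 over 6 pairs, and 0.65 to 0.96 when each value was taken as a deviation from its group mean. The highest value was that of Fasn with Elovl6. Slc25a1 had a negative r with each of the 8 enzymes over all libraries, -0.62 to -0.13, but a positive r with each within groups, 0.038 to 0.91, highest with Acly. The points share 6 libraries, their depth and their cell makeup, so these values are descriptions.

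The shared variation followed single libraries. Within miR_cKO, replicate 1 was highest for 8 of 8 enzymes and for Slc25a1. The share of all genes tested for which replicate 1 was highest was not counted, so this may not be particular to the enzymes. In miR_cKO 2 and 3, 7 of the 8 enzymes (all but Cs) were below every control, a pattern singled out after the values were seen. The same held for 12% of all genes tested, and the enzymes share their libraries, so this count is a description. The median deviation of the 8 enzymes from the control mean was 0.0049 in miR_cKO 1, -0.17 in miR_cKO 2 and -0.18 in miR_cKO 3 on the log2 scale. In controls 1 to 3 it was 0.050, -0.064 and -0.025. Without miR_cKO 1 the changes of Acaca, Fasn and Elovl6 were -0.26, -0.27 and -0.16, with none past the threshold (lowest limma adjusted p of the 3 = 0.692). Library miR_cKO 1 is the one with high Xist and it had the highest summed level of sensory neuron markers, 1808 RPKM against 1237 to 1713 RPKM elsewhere. The part of either in these values was not tested.

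Slc25a1 belongs to the SLC25 family of mitochondrial carriers, which move nucleotides, phosphate, amino acids and other metabolites across the inner membrane. The table holds 44 of them by symbol, and 36 were tested. Slc25a1 was the one called; the other 35 had log2 changes between -0.18 and 0.22, with a median of -0.069. The groups did not overlap for 2 carriers in the higher and 3 in the lower direction, against 4.63% and 6.24% of all genes. Slc25a25, an ATP-magnesium/phosphate carrier, was at 10.97 ± 0.634 and 12.96 ± 1.32 RPKM, and its relative Slc25a24 at 16.7 ± 1.40 and 14.6 ± 0.129 RPKM (SD, n = 3 each). Slc25a20, the carnitine carrier that brings fatty acids in for oxidation, had overlapping groups at 12.1 ± 1.34 and 14.0 ± 0.652 RPKM.

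The most abundant carriers, the adenine nucleotide carriers Slc25a4 and Slc25a5 and the phosphate carrier Slc25a3, had log2 changes of -0.076, -0.010 and -0.10. Of the 36 tested carriers, 14 had a site, Slc25a1 among them, and 4 had an 8mer site. Among all tested genes with an annotated 3 prime UTR these shares were 33.5% and 9.12%. Among the 35 carriers other than Slc25a1, the 5 with 2 or more sites were Slc25a20, Slc25a32, Slc25a36, Slc25a42 and Slc25a44. Their log2 changes were 0.21, -0.091, -0.10, -0.069 and -0.0064, none past the threshold. Slc25a32 has 2 sites, both 8mers, and Slc25a44 has 1 8mer. Whether any of these sites acts was not tested.

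**Figure D3:**
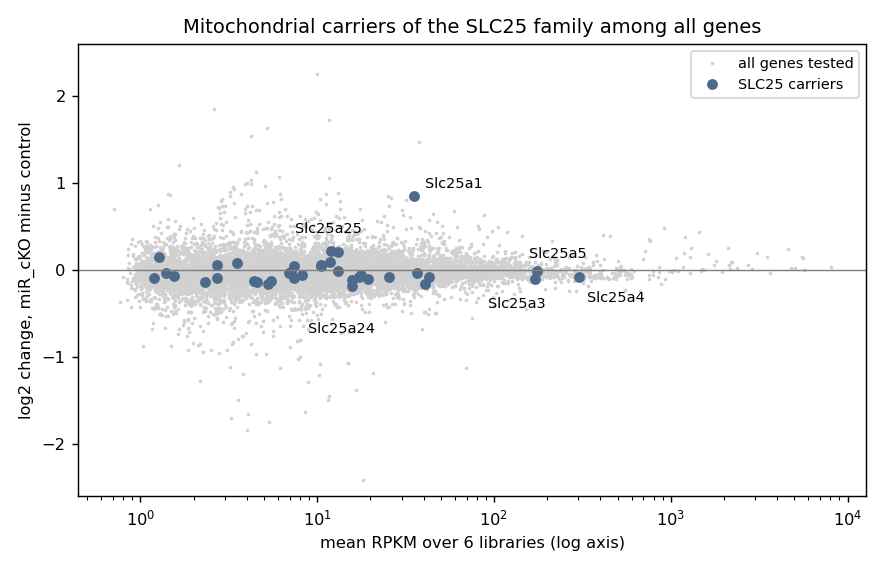
Log2 change between miR_cKO and control against mean RPKM over the 6 libraries (log axis) for all 13118 genes tested (grey) and the 36 tested SLC25 carriers (blue). Slc25a1 lies at 0.86, and the other 35 carriers lie between -0.18 and 0.22.

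Around the carrier, the pathway lists gave 0 called genes apart from Slc25a1. Genes named from the lists were in part picked by smallest p, which favours separate groups. Groups were separate for 0 genes higher and 3 lower in miR_cKO among 16 of the tricarboxylic acid cycle. Among 16 of pyruvate entry and the shuttle it was 1 and 2. Among 28 synthesis partners and 12 regulators it was 1 and 1 in each, and among 11 acetyl-CoA genes 2 and 0. Over all genes tested it was 4.63% and 6.24%. In the tricarboxylic acid cycle list all 16 tested genes had a log2 change below 0, with a median of -0.089, while 59.6% of all genes tested had one. With median centring it was 15 genes against 47.9% of all genes, and with the muscle covariate 13 against 45.2%. Without miR_cKO 1 it was 13 against 52.8%. Idh3g, a subunit of isocitrate dehydrogenase, was at 59.2 ± 1.82 and 54.1 ± 2.06 RPKM (SD, n = 3 each), with separate groups. Suclg1 and Idh3b, at log2 changes of -0.13 and -0.11, had overlapping groups. The 16 genes share libraries and are not independent.

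Among 16 tested genes of pyruvate entry and the citrate-pyruvate shuttle, 4 had a change above 0 and 12 below, with a median of -0.026, although median centring gave 9 and 7. Me2, the mitochondrial malic enzyme, was at 24.4 ± 1.08 RPKM in controls and 20.9 ± 1.88 in miR_cKO, with separate groups (log2 change -0.22). Pdk2, a kinase that switches off pyruvate dehydrogenase, had a change of 0.18, and Mpc2, a subunit of the pyruvate carrier, one of -0.13. Both also had separate groups. The cytosolic enzymes Idh1 and Me1, which supply NADPH for fatty acid synthesis, had changes of -0.049 and -0.096 with overlapping groups.

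Of 28 tested partners in fatty acid synthesis, 10 had a change above 0 and 18 below, with a median of -0.039. Fads1, a desaturase of polyunsaturated fatty acids with 1 seed site, measured 59.7, 59.9 and 55.3 RPKM in controls 1 to 3, against 72.1, 67.6 and 67.4 RPKM in miR_cKO 1 to 3. Its groups were separate, and its log2 change of 0.24 did not pass (limma adjusted p = 0.571). Acsl1, which activates long fatty acids to their CoA form, was at 12.6 ± 0.466 and 10.04 ± 1.24 RPKM (SD, n = 3 each), also with separate groups. Scd1, Scd3 and Mid1ip1, an activator of Acaca, had changes of -0.18, -0.16 and -0.16 with overlapping groups. Of these, Scd1 has 1 seed site, an 8mer, and Scd3 and Mid1ip1 have none. Acacb, the other acetyl-CoA carboxylase, was below 0.35 RPKM in each library and was not tested.

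Transcription of fatty acid genes is driven by SREBP factors, which the INSIG proteins hold back in the endoplasmic reticulum. Of 12 tested regulators 2 had a change above 0 and 10 below, with a median of -0.027, although median centring gave 6 and 6. Insig2, whose 1 seed site is an 8mer, measured 6.49, 6.31 and 7.04 RPKM in controls 1 to 3, against 10.7, 9.30 and 9.99 RPKM in miR_cKO 1 to 3. Its groups were separate, and its log2 change of 0.53 (SE 0.084) did not pass (limma adjusted p = 0.143). Srebf1, which encodes one of these factors, measured 8.36, 10.9 and 11.5 RPKM in controls, against 8.29, 8.62 and 8.61 RPKM in miR_cKO, where control 1 lay within the miR_cKO range. Prkaa1, the catalytic subunit of the AMP-activated kinase that inhibits Acaca, was at 11.6 ± 1.20 and 10.5 ± 0.321 RPKM (SD, n = 3 each), with separate groups and a change of -0.13.

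Other genes that supply or spend acetyl-CoA gave no call among 11 tested, a count that includes Acly. Nat8l, which makes the neuronal metabolite N-acetylaspartate from acetyl-CoA and has 2 seed sites (1 an 8mer), measured 3.43, 3.15 and 3.50 RPKM in controls 1 to 3, against 5.75, 4.53 and 4.65 RPKM in miR_cKO 1 to 3. Its groups were separate, with a log2 change of 0.45 and a limma adjusted p of 0.445. The 3 prime UTR of Nat8l is 4769 bases long. Slc33a1, which moves acetyl-CoA into the endoplasmic reticulum, had separate groups and a change of 0.17. Crat, the carnitine acetyltransferase, and Acss1, the mitochondrial counterpart of Acss2, had changes of 0.16 and 0.044 with overlapping groups.

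Of 17 tested genes of fatty acid oxidation, 4 had a change above 0 and 13 below, none with separate groups, and the median was -0.063. Hadh and Acaa2, enzymes of the last steps of the cycle, had changes of -0.24 and -0.16. Citrate carriers of the plasma membrane were almost absent: Slc13a5 was at 0.0614 RPKM or less, Slc13a3 at 0.0934 RPKM or less, and Slc13a2 was listed at 0 in 5 libraries. Over all these lists and the 9 genes, the 3 tested genes with the largest log2 changes in size were Slc25a1, Insig2 and Nat8l, at 0.86, 0.53 and 0.45. Of other genes named from the lists, Pdk2, Slc33a1 and Crat have 1 seed site each. Idh3g, Suclg1, Idh3b, Me2, Mpc2, Idh1, Me1, Acsl1, Srebf1, Prkaa1, Acss1, Hadh and Acaa2 have none. Whether sites in these lists go with higher levels was not tested.

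**Figure D4:**
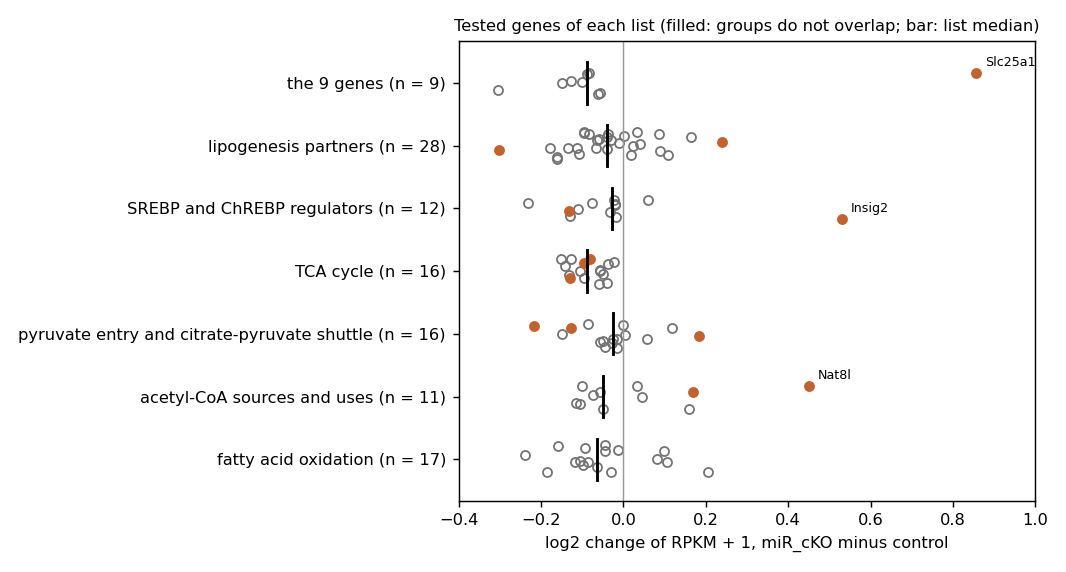
Log2 change between miR_cKO and control for the tested genes of each list, with the list median as a black bar and genes whose groups do not overlap as filled points (vertical scatter within a list has no meaning). Slc25a1, Insig2 and Nat8l lie at 0.86, 0.53 and 0.45, and the 16 tricarboxylic acid cycle genes all lie below 0.

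The genes with the profile most like that of Slc25a1 were ranked by Pearson's r of log2 values over the 6 libraries, among 6534 genes with a mean of at least 10 RPKM. Tsnax, a partner of the RNA-binding protein translin, came first (r = 0.995), at 36.3 ± 0.661 and 49.0 ± 1.70 RPKM (SD, n = 3 each). Atp1b3, a sodium pump subunit, Mob3a, Vat1, a vesicle membrane protein, and the adaptor Sh3kbp1 followed with r = 0.992, 0.991, 0.987 and 0.985. In all, 40 genes had an r above 0.95. The 6 points fall into the 2 groups by which Slc25a1 was chosen, so any gene with widely separate groups scores high, and these values are descriptions.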

How the data were processed

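RNA from E12.5 lumbar dorsal root ganglia of 3 control and 3 miR_cKO mice was sequenced after stranded library preparation, per the labels' protocols. The submitters' processing notes name Bowtie and the mm10 build, and the sources used here do not give its version, the counting tool or the annotation. The authors deposited 1 table of 24264 genes with a column per library and no unit in the header. The deposited values were read as RPKM, because low values of a gene are whole multiples of a step that depends on transcript length; whether pairs were counted as fragments (FPKM) is not known. By these steps, reads that were whole within 0.01 read were recovered for 92.6% of the tested genes, and depth was estimated.

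Values were transformed to log2(RPKM + 1), which understates changes of low genes. Genes with at least 1 RPKM in 3 libraries (13118) were fitted with limma 3.58.1 in R 4.3.3 (empirical Bayes, trend and robust settings) and Benjamini-Hochberg adjustment at 0.05, and the procedure was tested on simulated data. Groups came from sample titles, and the labels place all 6 libraries in a single run and lane. Seed sites were searched in the GENCODE M21 main transcript (best APPRIS rank, then longest coding part). Named genes are the 9 members, fixed paralogs and pathway genes, up to 3 genes of smallest p from each pathway list, the 3 of smallest p and 3 of highest level among SLC25 carriers, and the 5 profiles most like Slc25a1. Slc25a32, Slc25a36, Slc25a42 and Slc25a44 were named after their values were seen. The members and lists were chosen with earlier results of these data known. Python 3.11.15 and matplotlib 3.10.9 drew the figures.

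Markers of endothelium (60.8 to 89.2 RPKM summed), macrophages (9.72 to 19.7), red cells (2155 to 10719), hepatocytes (0.449 to 3.29) and spinal cord (1.35 to 4.60) were also summed per library. Alternatives covered filter, pseudocount, scaling, trend, array weights, replicate block, a muscle covariate and left-out libraries. The scaling without haemoglobin and mitochondrial genes removed them by symbol, and the beta globin gene Hbb-bs, listed as Beta-s, stayed in. No column of values was left unused. Values of 1 gene of the lists and 1 seed site are not reported here.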

Additional observations from a re-analysis of the deposited data

How the results depend on the processing

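The log2 change of Slc25a1 stayed between 0.78 and 0.94 in all 17 alternatives, but it stayed past the threshold in 3 of them: a minimum of 10 RPKM, a pseudocount of 0.1 and array weights. It did not pass without a filter (0.86), with upper quartile scaling (0.87), median centring (0.89), scaling without haemoglobin and mitochondrial genes (0.87), no trend (0.86), a replicate block (0.86), the muscle covariate (0.83), or, added after the data were seen, without controls 2 and 3 (0.87); limma adjusted p ran from 0.0576 to 1.00 in these. Leaving out 1 library gave 0.78 to 0.94. The count of called genes, 8, was 9 without a filter and 7 with either the stricter filter or the smaller pseudocount. It was 0 with upper quartile scaling, with scaling without haemoglobin and mitochondrial genes, without trend, with the replicate block, with the muscle covariate and without controls 2 and 3. It was 2 with median centring and 34 with array weights, and 0 to 2 with 1 library left out. Apart from the fit without controls 2 and 3, the fits with 0 called genes held 440 to 847 genes at an unadjusted limma p under 0.05. The 440 were of 12952 tested without control 3, the 847 of 13118 with the replicate block, and the main fit held 677 of 13118. Where no gene differs, a share of about 0.05 of the tested genes falls under this threshold, so these counts alone do not show that genes differ. The cause of the lost calls was not tested, beyond the fewer samples of the fits with libraries left out. Numbered samples of both groups were not paired by the labels, and their deviations had r = 0.36, 0.33 and -0.22, so the replicate block (0.86 for Slc25a1, 0 calls) shares only a number. The 8 enzymes stayed below 0 and uncalled in all alternatives, except Elovl6, which ran from -0.16 to 0.00014 with 1 library left out and was above 0 without miR_cKO 2. With 8mer sites alone, Acaca and Fasn kept none. No scaling moved the median of all genes by more than 0.1. Reads were recovered for Slc25a1, Aco1, Acss2 and Acaca, with at least 601 per library, and for these the libraries' spread exceeded counting error except for Slc25a1 in controls.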
